A study of Homo sapiens with 6 samples.

Results

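Granins and prohormone processing genes are followed here in SKNBE2, an established human neuroblastoma line that carries amplified MYCN. Cells treated with DFMO (difluoromethylornithine) are set against Control cells. DFMO blocks ornithine decarboxylase and with it the synthesis of polyamines. The set has 10 members, chosen by gene name: the granins and granin-like proteins CHGA, CHGB, SCG2 and SCG3, the prohormone convertases PCSK1 and PCSK2, their partners SCG5 and PCSK1N, and the processing enzymes CPE and PAM. They account for 323 of the 721551 splicing events in the deposited table, and 9 of the 10 had reads. The names were picked with results of the same comparison already known. Which values drove the choice is not recorded, so every difference between the groups below is a description of these members, and no p-value is given for them.

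There were 3 DFMO libraries, made after 4 days of the drug at 250 µM, and 3 Control libraries of the same line, for which no vehicle is stated. All 6 are stranded mRNA libraries of cultured cells with amplified MYCN. Nothing in the labels says that the 3 libraries of a group came from separate cultures, and the spread within a group can therefore be purely technical. Event reads, summed over all splicing events (1 read can enter several events), came to 99965533, 82886242 and 86134205 in the DFMO libraries and to 84931570, 77619639 and 103210693 in the Control libraries.

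Neuroendocrine cells store peptide hormones and amines in dense-core vesicles. Granins are acidic proteins that aggregate in the trans-Golgi network and help to form and load these vesicles, and many of them are also cut into peptides. Convertases cut prohormones after pairs of basic residues, CPE trims the basic residues left at the new ends, and PAM then amidates peptides that end in glycine. In sympathetic tissue and in neuroblastoma, chromogranin A is a widely used marker of the neuroendocrine state.

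The level of a gene was the sum of the reads of all its splicing events, as RPM (reads per 1000000 event reads of the library), since the series gives no gene counts. The sum grows with the number of events of a gene, so it compares libraries and not genes. A test across all 11762 genes with a mean of at least 1 RPM was run with limma on log2(level + 1). A gene is said to have passed at an adjusted p below 0.05, and to be called where the difference was also at least 1.5-fold. Log2 differences and folds are DFMO over Control on that scale, which understates the change of low genes, and errors after ± are SD (n = 3).

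Most granin and processing genes had higher levels in DFMO than in Control cells. Of the 9 members with reads, all 9 had a higher mean in the DFMO libraries, 8 passed the test as higher and 0 as lower. Among all genes fitted, 23.8% passed as higher and 25.6% as lower. In 8 members every DFMO library lay above every Control library, which was true of 27.2% of all genes fitted. The 1.5-fold minimum was met by SCG5 and PCSK1N and by no member in the other direction, against 2.01% of all genes called higher and 1.64% called lower. The median log2 difference was 0.28 over the 9 members and 0.001 over all genes fitted. Because the names were chosen with these results in view, nothing about the members is read from the counts. In bulk RNA, a change in how many cells make a transcript and a change in the amount per cell cannot be told apart.

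**Figure D1:**
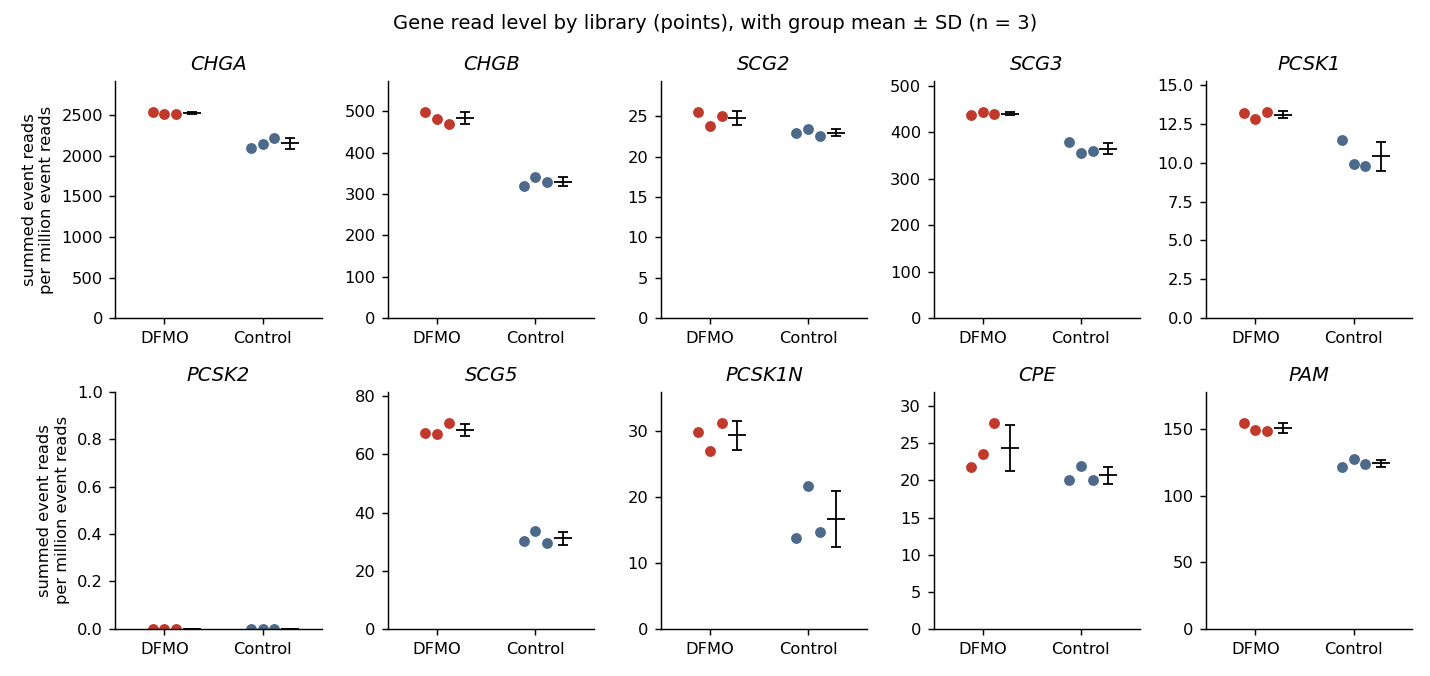
Level of each of the 10 members in every library, as summed event reads in RPM, on a linear axis from 0 for each gene, with DFMO libraries in red and Control libraries in blue and the group mean ± SD (n = 3) beside the points. The groups stand apart in 8 genes, they overlap in CPE, and PCSK2 is at 0 in every library.

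The sequences that follow are the 250 bases before the RefSeq start (GRCh38.p14) of 4 members. CHGA is shown as the most abundant member, SCG5 and PCSK1N as those with the largest differences, and PCSK1 because, like CHGA, it holds a full cyclic AMP response element, a motif long studied in neuroendocrine promoters. Capitals mark TGACG on either strand, and where the full TGACGTCA is present it is in capitals as a whole. The PCSK1N window holds no TGACG and is all in lower case.
CHGA promoter, chr14:92922900-92923149 (+ strand): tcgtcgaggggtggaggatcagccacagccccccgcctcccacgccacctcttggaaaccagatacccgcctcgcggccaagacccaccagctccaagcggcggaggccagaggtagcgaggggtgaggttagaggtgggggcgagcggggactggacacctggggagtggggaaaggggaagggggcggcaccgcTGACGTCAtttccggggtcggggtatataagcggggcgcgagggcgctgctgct
PCSK1 promoter, chr5:96433249-96433498 (- strand): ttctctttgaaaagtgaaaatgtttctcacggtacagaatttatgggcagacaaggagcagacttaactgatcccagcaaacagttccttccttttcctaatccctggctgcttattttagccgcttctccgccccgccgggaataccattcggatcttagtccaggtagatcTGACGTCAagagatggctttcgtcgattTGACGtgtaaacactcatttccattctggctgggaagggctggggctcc
SCG5 promoter, chr15:32641460-32641709 (+ strand): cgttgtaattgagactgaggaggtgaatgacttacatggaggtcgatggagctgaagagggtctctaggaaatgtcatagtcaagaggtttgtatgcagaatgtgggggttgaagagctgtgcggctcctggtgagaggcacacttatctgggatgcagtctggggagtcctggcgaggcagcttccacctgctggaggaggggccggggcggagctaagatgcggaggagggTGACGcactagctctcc
PCSK1N promoter, chrX:48835611-48835860 (- strand): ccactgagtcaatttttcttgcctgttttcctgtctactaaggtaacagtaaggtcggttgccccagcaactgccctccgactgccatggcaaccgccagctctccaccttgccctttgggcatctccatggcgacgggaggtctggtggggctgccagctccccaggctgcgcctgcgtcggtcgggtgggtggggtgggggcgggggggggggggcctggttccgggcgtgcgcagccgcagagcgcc

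The RefSeq table held promoters for 8 of the 10 members; CHGB and SCG2 are named only. TGACGTCA, which reads the same on both strands, was found in CHGA and PCSK1, and in 1.65% of the 35116 promoters of the same length in the table. The shorter TGACG, which the full motif contains, was found on either strand in CHGA, CPE, PCSK1, PCSK2 and SCG5, and in 21.2% of all promoters. GGGCGG was found on either strand in CHGA, PAM, PCSK1, PCSK1N, PCSK2 and SCG5, and in 42.6% of all. CACGTG, the E-box that MYC family proteins bind, was found in 0 of the 8 members and in 6.34% of all. These are matches of letters, and a gene with several starts was counted once if any of its windows held the motif. The shares are of single promoters, so members and shares are counted in different units, which favours the members. A further PCSK1 window, not printed, held 0 TGACG sites. The full motif was not found in the SCG5 and PCSK1N windows. A link between these motifs and the read levels was not tested.

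CHGA encodes chromogranin A and lies on chr14:92923080-92935293 (+ strand, GRCh38, as do all coordinates here). Its level was 2537, 2507 and 2518 RPM in the DFMO libraries, against 2092, 2139 and 2218 RPM in the Control libraries. The DFMO libraries lay close together and all above the Control libraries. The means were 2521 ± 14.9 in DFMO cells and 2149.9 ± 63.7 in Control cells, a log2 difference of 0.23 (SE 0.021) or 1.17-fold, so CHGA passed and rose by less than the 1.5-fold minimum.

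CHGB encodes chromogranin B, the other classical chromogranin, on chr20:5911430-5925361 (+ strand). It had 498, 482 and 469 RPM in the DFMO libraries and 319, 341 and 329 RPM in the Control libraries. The lowest DFMO library stood well above the highest Control library, and the gap exceeded the spread within either group. CHGB rose 1.46-fold, with a log2 difference of 0.55 (SE 0.03) and means of 483 ± 14.5 in DFMO and 329.8 ± 10.7 in Control cells, just under the fold minimum. It ranked 299 among all genes fitted by log2 difference.

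SCG3 encodes secretogranin III, which binds chromogranin A and cholesterol-rich membrane and so ties granin aggregates to the vesicle wall (chr15:51681353-51721031, + strand). It had 437, 443 and 439.7 RPM with DFMO and 379, 356 and 358 RPM in Control cells. All DFMO libraries lay above all Control libraries, and SCG3 passed with a log2 difference of 0.27 (SE 0.028), 1.21-fold. SCG2, secretogranin II, the precursor of the peptide secretoneurin (chr2:223596940-223602503, - strand), had 25.5, 23.8 and 25.1 RPM with DFMO and 22.9, 23.4 and 22.5 RPM in Control cells. Its groups also did not overlap, but the gap was narrow and SCG2 did not pass, with a log2 difference of 0.11 (SE 0.064).

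Levels can be set between genes only per junction, and for this the reads that join the exons on both sides of an intron were counted for each intron of a member, also as RPM. CHGA had a median of 67.0 ± 1.56 RPM per junction over its 7 introns in DFMO cells and 58.2 ± 1.67 in Control cells. CHGB followed with 19.5 ± 0.524 in DFMO and 13.4 ± 0.409 in Control cells over 4 introns. SCG2 had 12.4 ± 0.431 RPM in DFMO and 11.4 ± 0.245 in Control cells at its single intron. SCG3 had a median of 10.2 ± 0.328 in DFMO and 8.20 ± 0.553 in Control cells. Junctions within a gene differed more than libraries did: over the 6 libraries, junction means ran from 32.9 to 152 RPM in CHGA, from 10.8 to 24.2 in CHGB and from 6.07 to 12.8 in SCG3. CHGA thus stood above the other 3 granins at every junction, while the single SCG2 junction, with a mean of 11.9, lay inside the ranges of CHGB and SCG3, so these 3 have no clear order.

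The differences were also followed along each transcript. All 7 CHGA junctions had every DFMO library above every Control library, with log2 differences between 0.19 and 0.30. At the last CHGA intron, 1949 nt long, the DFMO libraries had 162, 163 and 165 RPM, against 142, 137 and 141 in the Control libraries. The 4 CHGB junctions ran from 0.52 to 0.59, the 11 SCG3 junctions from 0.20 to 0.42, and the single SCG2 junction was 0.11, all without overlap between the groups. Over the 10 members, 71 of 85 introns had at least 10 junction reads in every library. Of these, 40 had every DFMO library above every Control library, 0 had the reverse, 31 overlapped, and 68 had a log2 difference above 0. Over all 95051 junctions of the table with as many reads, 13.5% had every DFMO library above every Control library, 17.8% had the reverse, and 46.4% had a higher mean in DFMO. Junctions of 1 gene share its transcripts and are not independent of each other or of the gene's sum.

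**Figure D2:**
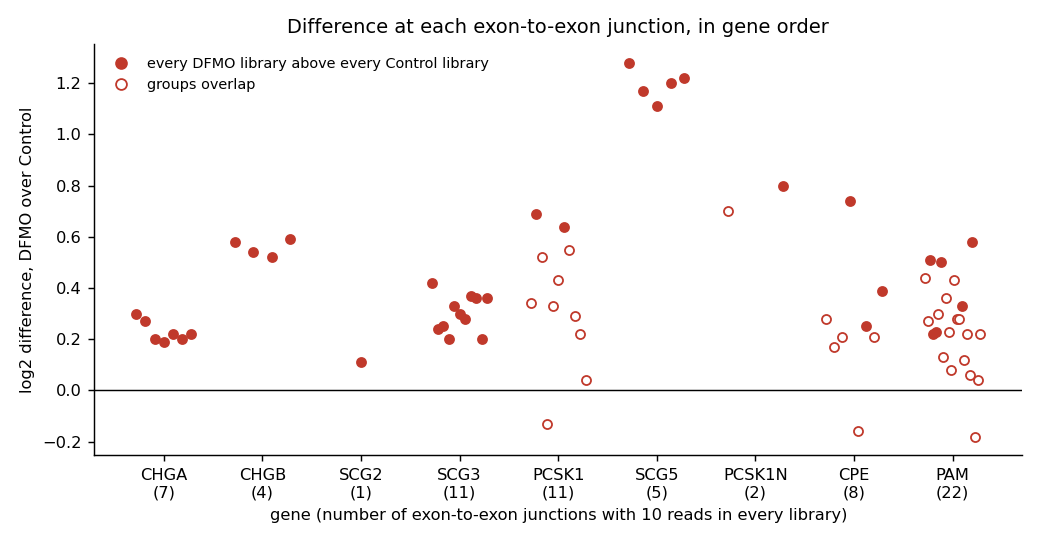
Log2 difference, DFMO over Control, in junction reads (RPM) for each of the 71 exon-to-exon junctions of the members with at least 10 reads in every library, in the order of the junctions along each gene. Filled points are junctions with every DFMO library above every Control library and open points are junctions where the groups overlap. SCG5 lies highest, with all 5 junctions at 1.11 or above, while PCSK1, CPE and PAM mix filled and open points and each has 1 junction below 0.

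SCG5 showed the largest difference of the set. It encodes 7B2, a small chaperone that escorts pro-convertase PC2 (the PCSK2 product) through the secretory pathway and whose C-terminal peptide inhibits it (chr15:32641676-32697098, + strand). Its level was 67.5, 67.1 and 70.9 RPM in the DFMO libraries, against 30.1, 33.7 and 29.7 RPM in the Control libraries. Every DFMO library lay about double or more above every Control library. SCG5 rose 2.16-fold, with a log2 difference of 1.11 (SE 0.057) and means of 68.5 ± 2.10 in DFMO and 31.2 ± 2.21 in Control cells, and was called. Its rank among all genes fitted was 9 by log2 difference.

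The SCG5 difference was alike along the transcript. At the junction across its longest intron, of 35947 nt, the DFMO libraries had 5.89, 5.94 and 6.50 RPM and the Control libraries 2.73, 2.58 and 2.83. At the last junction they had 4.88, 4.92 and 5.07 in DFMO and 1.89, 2.10 and 2.38 in Control cells. The 5 junctions differed by log2 1.11 to 1.28, with no overlap at any of them. With 4.96 ± 0.1001 RPM per junction in DFMO and 2.08 ± 0.175 in Control cells, SCG5 stayed below all 4 granins in both groups.

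Its partner PCSK2, which encodes the convertase PC2 (chr20:17226107-17484578, + strand), had 0 reads at all 32 of its events in all 6 libraries. With counting error only, a count of 0 allows up to 3 reads at 95% confidence. That is 0.0300 to 0.0362 RPM in the DFMO libraries and 0.0291 to 0.0387 RPM in the Control libraries. PCSK2 was therefore not fitted, and the table lists no difference for it. SCG5 transcripts were thus read in both groups without detectable PCSK2 transcripts.

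PCSK1 encodes PC1/3, the convertase that acts early in the secretory pathway (chr5:96390415-96434143, - strand). It had 13.2, 12.8 and 13.3 RPM with DFMO and 11.5, 9.95 and 9.80 RPM in Control cells. The DFMO libraries were all above the Control libraries, of which replicate 1 was the closest. PCSK1 passed with a log2 difference of 0.31 (SE 0.087), 1.24-fold. Per junction it was the lowest member with reads, at 0.266 ± 0.0317 RPM in DFMO and 0.214 ± 0.00885 in Control cells, and 2 of its 11 covered junctions had no overlap between the groups. In exon events alone PCSK1 passed with a log2 difference of 0.12. That measure averages log2(event RPM + 1) over the exon events scored LOW or better in every library. With 1 added to each event, it understates the change of events with few reads.

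PCSK1N encodes proSAAS, the granin-like precursor whose peptides inhibit PC1/3 (chrX:48831094-48835633, - strand). Its level was 29.9, 27.0 and 31.3 RPM in the DFMO libraries, against 13.8, 21.6 and 14.7 RPM in the Control libraries. Control replicate 2 stood above the other two but below every DFMO library. PCSK1N rose 1.75-fold, with a log2 difference of 0.80 (SE 0.113), and was called. With 1 library left out, the log2 difference ran from 0.69 without Control replicate 1 to 1.0 without Control replicate 2. PCSK1N was called each time. On the exon-event measure, which understates events with few reads, it was 0.35, and PCSK1N passed but was no longer called. Of its 2 junctions, the one across the 413-nt intron had 4.81, 4.41 and 4.59 RPM in DFMO and 2.47, 3.11 and 2.37 in Control libraries. At the other, Control replicate 2 with 1.08 RPM was level with DFMO replicate 1, also 1.08. Both inhibitors, SCG5 and PCSK1N, thus differed by more than the convertase PCSK1 did on the log2 scale; the differences between genes were not tested.

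The enzymes that finish peptides had smaller log2 differences than SCG5 and PCSK1N, and near those of CHGA and SCG3. CPE, carboxypeptidase E (chr4:165361194-165498320, + strand), had 21.7, 23.5 and 27.8 RPM with DFMO and 20.004, 22.0 and 20.05 RPM in Control cells. The groups overlapped, since Control replicate 2 lay above DFMO replicate 1. CPE passed with a log2 difference of 0.22 (SE 0.081), 1.16-fold. It did not pass in exon events alone (0.08), nor without DFMO replicate 3 (0.12), Control replicate 1 (0.20) or Control replicate 3 (0.20).

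PAM, the peptidylglycine amidating monooxygenase and the only known enzyme that amidates peptides in human cells (chr5:102753981-103031105, + strand), had 154.8, 149.5 and 148.2 RPM with DFMO and 121.8, 127.2 and 124.0 RPM in Control cells. All DFMO libraries were higher, by more than the spread within either group. PAM passed with a log2 difference of 0.28 (SE 0.035), 1.21-fold. Per junction it had 1.41 ± 0.0989 RPM with DFMO and 1.14 ± 0.0135 in Control cells, and CPE had 0.747 ± 0.0583 in DFMO and 0.666 ± 0.0933 in Control cells, with junction means that overlapped between both genes. At single junctions, 6 of 22 covered PAM junctions and 3 of 8 CPE junctions had every DFMO library above every Control library. Among all junctions of the table with means between 0.214 and 2.27 RPM, the range of the covered PCSK1, CPE and PAM junctions, that share was 12.1%.

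Splicing of the members was nearly constant. Of the 205 events scored LOW or better with 10 or more reads in every library, leaving out the first form of each splice-site choice, 78 had a mean above 95%, 118 a mean below 5% and 9 lay between. Of the 66 covered introns, 1, in PCSK1, was retained above 5% in any library. The last CHGA intron was retained at 3.29, 3.55 and 3.42% in the DFMO libraries and 3.80, 3.77 and 4.32% in the Control libraries. The lowest Control library was above the highest DFMO library, in an event outside the range of the test.

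The 9 events between 5 and 95% were 5 exons and 4 acceptors, 7 of them in PAM. They were fitted with all events of their class on the log2 odds of inclusion, and a call needed an adjusted p below 0.05 together with a difference of 10 points. Of these 9, 0 were called or passed the adjusted p in limma, and 1, at the PAM tail exon described below, had an unadjusted p below 0.05, while 3.47% of all 7464 exons and 1.23% of all 2433 acceptors were called. Simulated differences of 20 points were called in 61% of 200 events, so smaller ones can be missed. Those 200 events had mid-range inclusion in Control cells, and the share was not measured for events near 5 or 95%.

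Sequences are given for 4 exons: those with paired acceptors 3 bases apart among the tested events and, as background to SCG5, the exon that encodes its basic run, which was not tested. They are from the GENCODE v29 transcripts (GRCh38). The membrane exon of PAM decides whether the enzyme spans the membrane or is soluble in the vesicle, and it is the longest of the 4. In the first 3 exons, capitals mark the 3 bases between paired acceptors, which the downstream acceptor leaves out. In the last, capitals mark 5 consecutive lysine or arginine codons of its 18 codons, the basic run at which 7B2 is known to be cut.
PAM membrane exon, chr5:103025131-103025334 (+ strand): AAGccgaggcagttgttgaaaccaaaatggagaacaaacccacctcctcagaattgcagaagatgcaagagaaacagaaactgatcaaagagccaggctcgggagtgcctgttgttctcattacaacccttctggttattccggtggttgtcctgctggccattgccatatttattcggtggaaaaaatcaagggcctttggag
PAM exon of the cytosolic tail, chr5:103028182-103028238 (+ strand): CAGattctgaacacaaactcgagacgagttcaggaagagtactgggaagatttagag
SCG5 exon with paired acceptors, chr15:32684557-32684669 (+ strand): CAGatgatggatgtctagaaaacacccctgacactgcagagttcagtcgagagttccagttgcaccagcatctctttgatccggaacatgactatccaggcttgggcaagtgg
SCG5 exon with the basic run, chr15:32691710-32691763 (+ strand): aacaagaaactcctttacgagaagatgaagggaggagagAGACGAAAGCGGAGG

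The PAM membrane exon was listed with 201 nt, from its downstream acceptor at chr5:103025134, a form the annotation gives only without coding sequence. As listed, it was included at 49.7, 45.4 and 46.1% in the DFMO libraries, on 366, 269 and 317 reads. In the Control libraries it was included at 44.9, 47.6 and 44.8%, on 229, 234 and 315 reads. The groups overlapped, with means of 47.1% ± 2.30 in DFMO and 45.8% ± 1.59 in Control cells, a difference of 1.26 points. Inclusion and skipping of the exon as listed were thus read at near equal shares in both groups. At its paired acceptors, the upstream one was used at 88.8% ± 5.27 with DFMO and 93.3% ± 2.46 in Control cells, again with overlap.

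The exon between the 2 catalytic domains of PAM, whose skipping removes the linker between them, was listed with 183 nt from chr5:102974116. In the annotation an exon with the same start ends at 102974436 and is 321 nt long, in 5 coding transcripts. It was included at 74.8, 71.3 and 66.5% with DFMO and at 60.8, 73.0 and 70.2% in Control cells. The groups overlapped, and the means of 70.8% ± 4.17 with DFMO and 68.0% ± 6.39 in Control cells differed by less than either SD. An exon of 54 nt at chr5:102987518-102987571, at which GENCODE v29 has no exon with these ends, was included at 19.2, 27.3 and 22.9% with DFMO and 18.6, 16.96 and 20.5% in Control cells, also with overlap. A 100-nt coding exon at chr5:103017334 stood at 94.95% ± 2.91 with DFMO and 95.04% ± 2.46 in Control cells.

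The exon of the PAM cytosolic tail, printed above, was listed with 54 nt, from its downstream acceptor at chr5:103028185. As listed, it was included at 84.5% ± 4.51 in DFMO and 84.3% ± 3.59 in Control cells. Its paired acceptors gave the largest difference among the members' events. They were listed on a form of the exon that ends at 103028222, which the annotation gives in 1 transcript without coding sequence. The upstream acceptor adds the 3 bases in capitals, which are 1 codon in the coding form printed above. This acceptor was used at 57.3, 52.5 and 58.1% in the DFMO libraries, on 181, 136 and 140 reads. In the Control libraries it was used at 42.3, 45.3 and 48.1%, on 105, 111 and 150 reads. Every DFMO library lay above every Control library, and the means of 56.0% ± 3.02 with DFMO and 45.2% ± 2.88 in Control cells differed by 10.7 points, but the event did not pass the adjusted p (log2 odds difference 0.62, SE 0.29).

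**Figure D3:**
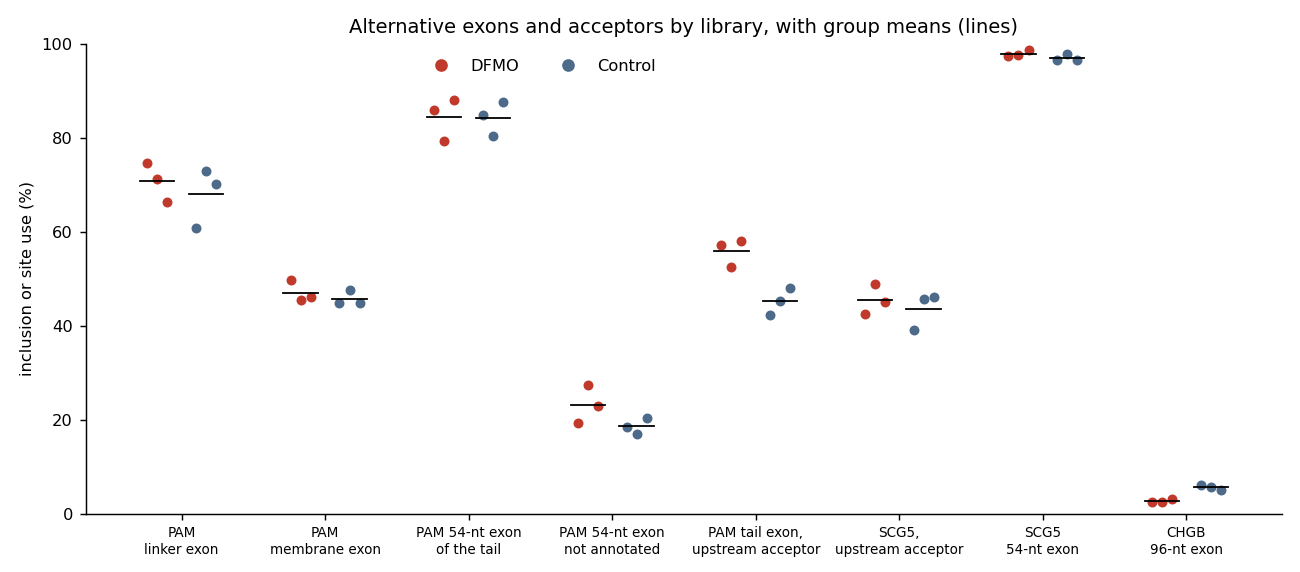
Inclusion or splice-site use in percent, from 0 to 100, in every DFMO library (red) and Control library (blue), with group means as lines, for 5 exons and acceptors of PAM, 2 events of SCG5 and 1 exon of CHGB. The groups overlap except at the PAM tail acceptor, where DFMO lies higher, and the CHGB 96-nt exon, where it lies lower; neither is a called event, and the CHGB exon and the SCG5 54-nt exon were not tested.

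In SCG5 the choice between acceptors 3 bases apart was near even. The upstream acceptor was used at 42.5, 48.9 and 45.1% in the DFMO libraries, on 312, 264 and 299 reads, and at 39.2, 45.7 and 46.2% in the Control libraries, on 148, 153 and 132 reads. The groups overlapped, at 45.5% ± 3.19 with DFMO and 43.7% ± 3.93 in Control cells, so the 2.16-fold higher level came with no detectable change in this choice at these read numbers. The SCG5 exon with the basic run, in 2 coding transcripts, was included at 97.5, 97.6 and 98.7% with DFMO and 96.7, 97.9 and 96.6% in Control cells. It was outside the range of the test, and nearly all messages in both groups kept it.

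CHGB held 2 events at the same place. A 96-nt exon at chr20:5914618-5914713, which the annotation gives in 1 transcript without coding sequence, was included at 2.41, 2.60 and 3.18% with DFMO and at 6.03, 5.74 and 5% in Control cells. All DFMO libraries lay below all Control libraries, in an event whose mean was too low for the test. In RPM, the inclusion reads were 0.359, 0.396 and 0.485 with DFMO and 0.606, 0.661 and 0.529 in Control cells, and the skipping reads were 14.5, 14.8 and 14.8 with DFMO and 9.44, 10.9 and 10.1 in Control cells. The higher CHGB level was thus in the skipping reads. The acceptor of this exon was used at 92.0% ± 2.86 with DFMO and 94.6% ± 1.20 in Control cells, with overlap.

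SCG2, SCG3, PCSK1, PCSK1N, CPE and CHGA had no event between 5 and 95% among those covered. SCG3 had all 37 of its listed events covered and CPE all 27, while PCSK1 had 16 of 36 and PCSK2 0 of 32. Genes on the other strand overlap SCG3, SCG5, PCSK1, PCSK2 and CPE in GENCODE v29. The libraries were stranded, but whether the authors' counting used strand is not given in the sources used here, so reads of such a partner cannot be told apart from those of the member.

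Genes around the members were read from lists written by name, with earlier results of these data known. Genes given with a p-value are extremes among those of a list that passed, so these values are a description too. The adjusted p-values come from the test over all genes fitted. They set the group difference against the spread between libraries of a group, which can be purely technical. Over all genes fitted, 23.8% passed as higher and 25.6% as lower, and the counts of each list stand beside these shares. Of 7 other convertases 5 were fitted, 2 passed as higher and 1 as lower, with a median log2 difference of -0.01. FURIN, the ubiquitous convertase of the trans-Golgi network, fell to 87.8 ± 2.24 RPM in DFMO cells, against 104.8 ± 4.41 in Control cells (log2 -0.25, SE 0.04, limma adjusted p = 5.1e-05). PCSK7 rose, with 114 ± 3.08 in DFMO and 96.5 ± 3.74 in Control cells (log2 0.24, SE 0.04, limma adjusted p = 6.6e-05), and PCSK4, a low gene with 1.35 ± 0.349 in DFMO and 0.726 ± 0.226 in Control cells, rose by 0.44 on the log2 scale (SE 0.16, adjusted p = 0.024 in limma). MBTPS1 (-0.01) and PCSK6 (-0.03) did not pass. Without Control replicate 2, PCSK4 did not pass (log2 0.33), and without DFMO replicate 2 or 3 it was under the minimum level, so 1 convertase passed as higher.

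Of 10 other peptidases and glutaminyl cyclases 7 were fitted, with 1 higher, 3 lower and a median of -0.12. QPCTL, the Golgi glutaminyl cyclase, had a log2 difference of 0.27 (SE 0.06, limma adjusted p = 0.00099). AEBP1 (-0.44), CPXM1 (-0.22) and CPD (-0.12), all of the carboxypeptidase family to which CPE belongs, fell. CPD, the carboxypeptidase of the trans-Golgi network, had 70.7 ± 0.744 RPM in DFMO and 77.2 ± 3.09 in Control cells (limma adjusted p = 0.024). CPXM1 did not pass without any 1 of DFMO replicates 1 and 2 and Control replicates 1, 2 and 3, and CPD did not without DFMO replicate 1 or 3 or Control replicate 3, so that 1 gene passed as lower without DFMO replicate 1 or Control replicate 3.

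Peptide precursors differed in both directions. Of 25 precursors of neuropeptides and growth factors 9 were fitted, 2 passed as higher and 3 as lower, with a median of -0.07. With no filter on low values 4 passed as higher, and in exon events alone 1 did, while 3 passed as lower under both. GAL, the galanin precursor, fell to 109 ± 0.712 RPM in DFMO cells, against 139 ± 2.41 in Control cells (log2 -0.35, SE 0.03, limma adjusted p = 1.2e-07). IGF2, insulin-like growth factor II, fell to 59.1 ± 2.88 in DFMO cells, against 85.1 ± 2.66 in Control cells (log2 -0.52, SE 0.05, limma adjusted p = 3e-08). ADM, the precursor of the amidated peptide adrenomedullin, rose and was called, with 3.03 ± 0.333 in DFMO and 1.20 ± 0.396 in Control cells (log2 0.88, SE 0.15, limma adjusted p = 5.3e-05), and NMU, neuromedin U, rose by 0.30 (SE 0.08, adjusted p = 0.0036 in limma).

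Of 27 genes of dense-core vesicle formation and release 24 were fitted, with 9 higher, 4 lower and a median of 0.11. PICK1, a BAR-domain protein of immature vesicles, had 31.8 ± 0.931 RPM in DFMO and 19.997 ± 2.10 in Control cells (log2 0.65, limma adjusted p = 5.9e-07). VAMP2, the vesicle SNARE, had 28.4 ± 0.364 in DFMO and 18.0 ± 0.657 in Control cells (log2 0.63, limma adjusted p = 1.8e-07). Both were called, among 3 genes of this list called higher and 0 called lower. UNC13A, which primes vesicles, fell to 104 ± 0.353 in DFMO cells, against 136 ± 2.12 in Control cells (log2 -0.38, limma adjusted p = 3.9e-08), and RAB27B, a Rab of docking, fell by 0.35 (limma adjusted p = 0.038) but did not pass without DFMO replicate 1 (-0.29) or 3 (-0.36) or Control replicate 2 (-0.22).

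The list closest to PAM held 7 genes that bring copper and electrons to the vesicle lumen or acidify it. All 7 were fitted, 6 passed as higher and 1 as lower, with a median of 0.29. ATP7A, the copper pump that loads PAM, had 44.7 ± 1.78 RPM in DFMO and 34.6 ± 0.883 in Control cells (log2 0.36, limma adjusted p = 2.2e-05). SLC31A1, the copper importer, rose by 0.34 and ATOX1, the copper chaperone, by 0.21 (limma adjusted p = 0.00012 and 0.0081). CYB561, which carries electrons across the vesicle membrane for PAM, fell to 167 ± 1.23 in DFMO cells, against 182 ± 0.912 in Control cells (log2 -0.13, limma adjusted p = 0.0016). None of these 7 was called.

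**Figure D4:**
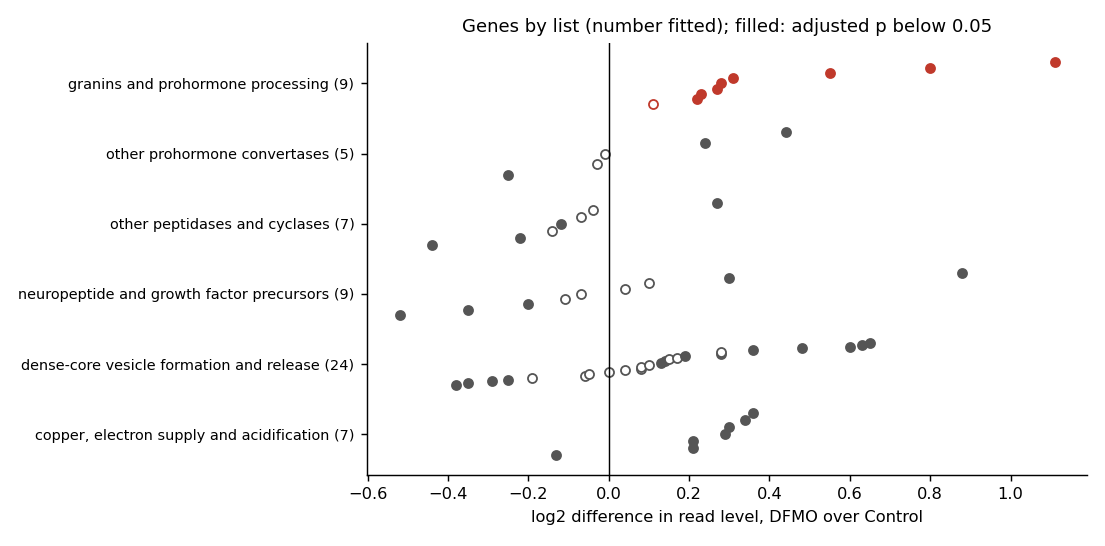
Log2 difference in read level, DFMO over Control, for each fitted gene of the members (red, top row) and of the 5 related lists (grey), with the number fitted in brackets and filled points for an adjusted p below 0.05. The members and the copper and acidification list lie mostly above 0, and the other lists spread to both sides of 0.

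The 5 genes whose levels ran most like those of CHGA over the 6 libraries, by the root mean square difference of log2 levels centred on each gene's mean, were SEC24C (0.0093), RBM5 (0.0143), DDX60 (0.0149), EXOC4 (0.0151) and CDH2 (0.0158). Their log2 differences were between 0.21 and 0.25. Likeness was measured over both groups, so values near the 0.23 of CHGA follow from the choice.

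The line's own identity was read from marker lists. All 12 noradrenergic neuroblast markers were fitted, 4 passed as higher and 3 as lower, and their summed level was 3151 to 3223 RPM in DFMO and 3456 to 3475 in Control libraries. STMN2 carried the lower sum: without it the other 11 markers summed to 2124 to 2173 RPM in DFMO and 2043 to 2081 in Control libraries. Of 8 mesenchymal markers 5 were fitted, 0 passed as higher and 2 as lower, with sums of 185 to 211 in DFMO and 197 to 203 in Control libraries. Schwann or glial markers summed to 3.71 to 4.17 in DFMO and 3.36 to 5.03 in Control libraries with SOX10 at 0, and white blood cell markers to at most 0.0483 in DFMO and 0.0969 in Control libraries with LYZ at 0. Of 6 fibroblast or endothelial markers, PDGFRA, PDGFRB and THY1 passed as higher, with sums of 268 to 287 in DFMO and 250 to 262 in Control libraries. PDGFRB and THY1 made up nearly all of these sums. Of the endothelial markers, PECAM1 was at 0, CDH5 at most at 0.120 RPM and KDR at most at 0.139 RPM in any library. The part of the marker genes in the member differences was not tested.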

How the data were processed

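Stranded mRNA libraries of SKNBE2 cells were sequenced as single reads, per the labels. The authors deposited a percent for each of 721551 splicing events in each library, on GRCh38 per the submitters' processing notes. Beside each percent the authors deposited other values as quality text, which gave a coverage score and, for inclusion and exclusion, the reads. Aligner and counting tool: not given in the sources used here. Percents recomputed from the reads lay within 0.5 points. Events without a gene symbol (1340) held 0.0377 to 0.0397% of the event reads and were left out, and 0 columns of values per library went unused.

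Gene levels were sums of event reads per 1000000 event reads. The fit used limma 3.58.1 under R 4.3.3 (variance trend, robust), on log2 with 1 added, for genes with a mean of at least 1, with two-sided p-values adjusted by Benjamini-Hochberg over 11762 genes. Events needed a score of LOW or better and 10 reads in every library and a mean between 5 and 95%. Log2 odds (0.5 added to each read number) were fitted per event class with a variance trend on the expected counting variance, and adjusted within the class. The first form of each acceptor or donor event was left out. Variance between libraries of a group was 1.98 to 2.29 times that of counting, so counting error is a lower limit. In simulated data, 100% of 100 genes changed 1.8-fold and of 100 changed 2-fold were called among 11762 genes, and 61% of 200 events changed by 20 points among 14318 events. The changed genes were drawn from those above 10 RPM in Control cells, and the changed events from mid-range inclusion. For genes below 10 RPM and events near 5 or 95% the shares are therefore not known.

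The members and lists were chosen with earlier results of these data known. The text names all members, every tested event of a member, the 2 highest and 2 lowest genes past the adjusted p in each related list and the 5 genes most like the member with the most reads per junction. Events outside the tested range (CHGA introns, a CHGB exon and an SCG5 exon) were chosen after their values were seen. So were MBTPS1 and PCSK6, the marker sum without STMN2 and the shares over all junctions. Replicate numbers did not pair the libraries, and the alternatives are listed with their effect in the closing section. Sequences are from GENCODE v29 transcripts and the RefSeq promoter table.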

Additional observations from a re-analysis of the deposited data

How the results depend on the processing

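Settings that left the members' count called (2) and their count passed (8) within 1.5 times were the intron-junction measure, median ratio scaling, a pseudocount of 0.1, no filter on low values and each library left out (2 called throughout, 7 to 8 passed). Members' events called stayed at 0 under every setting. In exon events alone, where 1 is added to each event and events with few reads are understated, 1 member was called, and SCG2 passed (0.10). CPE did not pass in exon events alone (0.08) or with no filter (0.22). All genes called higher numbered 237, with 21 in exon events alone and 439 at a pseudocount of 0.1, and 244 to 273 without 1 library; those called lower numbered 193, with 12, 294 and 179 to 209. Genes passed as higher and lower were 2405 to 2563 and 2681 to 2776 without 1 library. Called exons numbered 259, with 14 without the variance trend, 429 without the 10-point minimum and 158 to 223 without 1 library, lowest without DFMO replicate 1 (158) and Control replicate 3 (162). Called acceptors numbered 30, with 19 on the percent scale, 0 without the trend and 8 to 26 without 1 library, lowest without DFMO replicates 1 (8) and 2 (12). Without 1 library the difference in points changed sign for the PAM exons at 103017334 (-1.76 to 0.65), 103025134 (-0.05 to 2.18), 102974116 (-0.76 to 5.34) and 103028185 (-1.77 to 2.69) and for the SCG5 acceptor (-0.44 to 3.3), none of which was called. The mean over introns in place of the median gave CHGA 81.5 RPM per junction in DFMO and 69.8 in Control cells, and SCG5 3.81 in DFMO and 1.67 in Control cells. Replicate numbers correlated at 0.005, 0.005 and -0.01 between groups, and not every library correlated best with its own number. With the replicate block, 2 members were called and 8 passed, and 237 genes were called higher and 193 lower. CPXM1 did not pass with the block (-0.22, limma adjusted p = 0.052) or under median ratio scaling (-0.22), in exon events alone SLC31A1 (0.20) and CPD (-0.08) did not, and in intron junctions QPCTL (0.10) and PCSK4 (0.39) did not. The causes of these shifts were not tested. PCSK1, with the fewest reads per junction among members with reads, is limited most by depth.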
